A study of Rattus norvegicus with 56 samples.

Results

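The genes described here encode the subunits of voltage-gated sodium and calcium channels in cultured rat hippocampal neurons. They were chosen by symbol: every rat gene named Scn with a number and the letter a or b, or named with the prefix Cacn, whose RefSeq accession is listed for a probe of the array. Of the 40 genes that fit the rule, 38 were matched to a probe, out of 16481 genes with a symbol on the array. No probe matched Scn7a or Cacna1d. For the 11 genes with several probes the brightest stood for the gene.

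Voltage-gated sodium channels open on depolarization and carry the rising phase of the action potential. Their pore is a large alpha subunit, and small beta subunits set gating and surface placement. Calcium channels of the Cav1 and Cav2 families are built from a pore-forming alpha1 subunit with alpha2delta and beta subunits, which bring the pore to the membrane. Among the alpha1 subunits, the Cav1 or L-type channels are known for coupling activity to transcription, the Cav2 channels for transmitter release, and the Cav3 or T-type channels for burst firing at negative potentials. The gamma genes fall into a muscle type and the TARP type, whose proteins are better known as auxiliary subunits of AMPA receptors.

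RNA came from primary cultures of hippocampal neurons of Sprague-Dawley rats taken at embryonic day 18. Dishes stood on an inverted coil and received repetitive transcranial magnetic stimulation at 15% of the maximal output of the stimulator, either as single pulses at 1 Hz or as iTBS, an intermittent pattern of brief theta bursts. Sham dishes stood in the same kind of incubator with the coil about 20 cm away. RNA was taken 0, 2, 8, 24 or 48 h after the end of stimulation, and untreated dishes were taken at 0 h only. One array of 1 Hz at 2 h was not used, since its scan is marked as having a bad grid. The other 55 arrays form 16 groups, of which 1 has 2 arrays, 7 have 3 and 8 have 4. The labels do not say whether arrays of a group came from separate cultures, so p-values measure the spread between these samples, which may be technical.

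The arrays also fall into series by the sample number in their labels, called A (11 arrays), B (12), C (17) and D (15) here. Series D holds the numbers written with a D and the others are consecutive runs of plain numbers. The labels do not say what the series are. A group has at most 1 array of a series, except that the untreated group has 2 from A and 2 from C. Series A, B and C lie on different slides, while series D lies on all 7 slides. Levels are scaled log2 signals: each array is centred at 0, and 1 unit is a doubling on an array of typical spread. Between 66.1% and 81.8% of spots were well above background. A gene passed a test at a Benjamini-Hochberg adjusted p under 0.05 in limma, adjusted over all probes tested.

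The cultures held more than neurons. All 8 neuronal markers listed, among them Map2 and Tubb3, were well above background on all 55 arrays, and so were all 8 astrocyte markers, all 8 oligodendrocyte lineage markers and the 4 measured markers of dividing cells. RNA was taken from whole dishes, so fewer cells of a type and less RNA per cell cannot be told apart in any result below.

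Of the 38 genes, 27 were well above background on all 55 arrays. These include the 4 sodium channel alpha subunits of the central nervous system, Scn1a, Scn2a, Scn3a and Scn8a, and the beta subunits Scn2b, Scn3b and Scn4b. Among alpha subunits known mainly outside the central nervous system, the sensory neuron gene Scn9a was above background on every array, Scn11a on 44, the sensory neuron gene Scn10a on 4 and the skeletal muscle gene Scn4a on 3.

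The Cav2 genes Cacna1a, Cacna1b and Cacna1e, the Cav3 genes Cacna1g, Cacna1h and Cacna1i, and the L-type gene Cacna1c were above background throughout. The other L-type genes were near background: Cacna1s, the skeletal muscle form, was above it on 3 arrays and Cacna1f, the retinal form, on 0. All of Cacnb1, Cacnb2, Cacnb3 and Cacnb4 were detected on every array, as were the alpha2delta genes Cacna2d1 and Cacna2d3. Cacna2d2 was detected on 41 arrays and Cacna2d4 on 2. The TARP genes Cacng2, Cacng3, Cacng4, Cacng7 and Cacng8 were detected throughout and Cacng5 on 25 arrays. Of the other gamma genes, Cacng6 was above background on 51 arrays and Cacng1, the skeletal muscle form, on 12. Testing required 3 such arrays, which left 36 genes and took out Cacna1f and Cacna2d4.

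Several of these genes lie side by side. In the RefSeq table of assembly GRCr8, Scn2b neighbours Scn4b on chromosome 8, Cacng4 lies between Cacng1 and Cacng5 on chromosome 10, Cacng8 lies between Cacng6 and Cacng7 on chromosome 1, and Scn1a neighbours Scn9a on chromosome 3. The stretches of 250 bases before the RefSeq start are printed for 5 of the genes described below, 4 that rose with time and Cacng6, which fell, chosen with their changes known. They are written 5′ to 3′ on the gene's strand. Capitals mark GGGCGG, the GC box bound by Sp1, and CAGCACC, letters from the element bound by the neuronal gene repressor REST, each searched on both strands. CCAAT, the CAAT box, TGACG, letters bound by CREB, and TATAAA, the TATA box, were searched in the same way and are in none of these 5 stretches.
Cacng3, chr1:186632312-186632561, plus strand: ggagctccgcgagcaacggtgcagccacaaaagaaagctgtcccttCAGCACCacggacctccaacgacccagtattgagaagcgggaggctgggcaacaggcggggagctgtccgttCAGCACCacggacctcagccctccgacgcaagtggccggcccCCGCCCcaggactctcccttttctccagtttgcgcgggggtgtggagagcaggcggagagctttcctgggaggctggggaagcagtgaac
Scn9a, chr3:71701378-71701627, minus strand: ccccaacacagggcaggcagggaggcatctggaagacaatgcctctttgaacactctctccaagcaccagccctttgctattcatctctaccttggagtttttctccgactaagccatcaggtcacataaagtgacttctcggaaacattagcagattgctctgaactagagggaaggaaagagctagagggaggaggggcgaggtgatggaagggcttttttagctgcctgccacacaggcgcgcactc
Scn2b, chr8:54322133-54322382, plus strand: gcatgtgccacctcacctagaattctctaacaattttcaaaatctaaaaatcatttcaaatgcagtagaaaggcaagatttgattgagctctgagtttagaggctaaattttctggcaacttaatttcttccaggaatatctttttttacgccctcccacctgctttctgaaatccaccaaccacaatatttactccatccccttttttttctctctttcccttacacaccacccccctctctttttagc
Scn4b, chr8:54343623-54343872, plus strand: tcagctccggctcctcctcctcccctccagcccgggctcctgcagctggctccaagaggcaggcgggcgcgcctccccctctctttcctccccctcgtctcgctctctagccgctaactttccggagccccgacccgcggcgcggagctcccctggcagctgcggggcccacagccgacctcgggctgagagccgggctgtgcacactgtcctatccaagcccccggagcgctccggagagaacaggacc
Cacng6, chr1:74662754-74663003, minus strand: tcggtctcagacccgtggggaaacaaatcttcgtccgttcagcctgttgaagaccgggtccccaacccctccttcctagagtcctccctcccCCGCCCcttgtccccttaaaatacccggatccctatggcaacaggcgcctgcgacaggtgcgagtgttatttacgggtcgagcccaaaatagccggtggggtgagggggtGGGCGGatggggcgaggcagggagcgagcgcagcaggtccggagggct

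Cacng3 was the only one of the 25 genes with an entry whose stretch holds CAGCACC, which it holds 2 times. These letters are in 5.43% of the 33469 promoters of the table. The GC box is in 11 of the 25 and in 30.5% of all promoters. G and C make up 64.8% of the Cacng3 stretch, 71.6% of that of Scn4b, 63.2% of that of Cacng6, 52.4% of that of Scn9a and 38.8% of that of Scn2b, against a median of 51.2% over all promoters. The neighbours Scn2b and Scn4b thus lie on opposite sides of that median. These matches are a description of the letters and no binding was measured.

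The first question was whether either protocol changed these genes against sham at the same time. None of the 36 genes passed in any of the 10 comparisons. Over all 13877 genes tested, the share that passed was 0% in 9 comparisons and 0.00721% (1 gene) for iTBS at 8 h. A joint test of the 10 comparisons called 0 of the 36 (0.00721% of all genes), and tests of whether the change from sham differed between times called 0 for 1 Hz and 0 for iTBS (0% of all genes in both). With the sample-number series in the model as a block, 0 of the 36 passed in each comparison as well.

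The size of the differences follows the spread of each gene. Of the 360 differences from sham (36 genes in 10 comparisons), 260 were smaller than 1.2-fold in either direction. For Scn2a, the alpha subunit of early axons, the 10 differences lay between −0.22 and 0.17, with standard errors of 0.18 to 0.22. On the 4 sham arrays at 0 h Scn2a stood at 6.53, 6.83, 6.22 and 6.42, on the 3 arrays of 1 Hz at 6.51, 6.07 and 6.26, and on the 4 of iTBS at 6.84, 6.12, 6.38 and 6.29. The groups overlap. Cacna1c, the main L-type pore of neurons, differed from sham by −0.19 to 0.14 and Scn2b by −0.22 to 0.10. Among the Cav2 genes, Cacna1a, the P/Q-type pore, ran from −0.47 to 0.19, Cacna1b, the N-type pore, from −0.26 to 0.39 and Cacna1e, the R-type pore, from −0.55 to 0.42.

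Genes that varied more between series gave wider errors. The standard errors of Cacng3 reached 1.19 and those of Scn9a 1.09 in this fit, which has no term for the series. Differences from sham of that size would not stand out from the spread in this fit for these genes. The fit with the series as a block takes that spread out, and its standard errors are not given here. For 1 Hz at 24 h, the comparison with the largest median in either direction, the 36 genes had a median difference of 0.14 and all genes tested a median of 0.01.

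**Figure D1:**
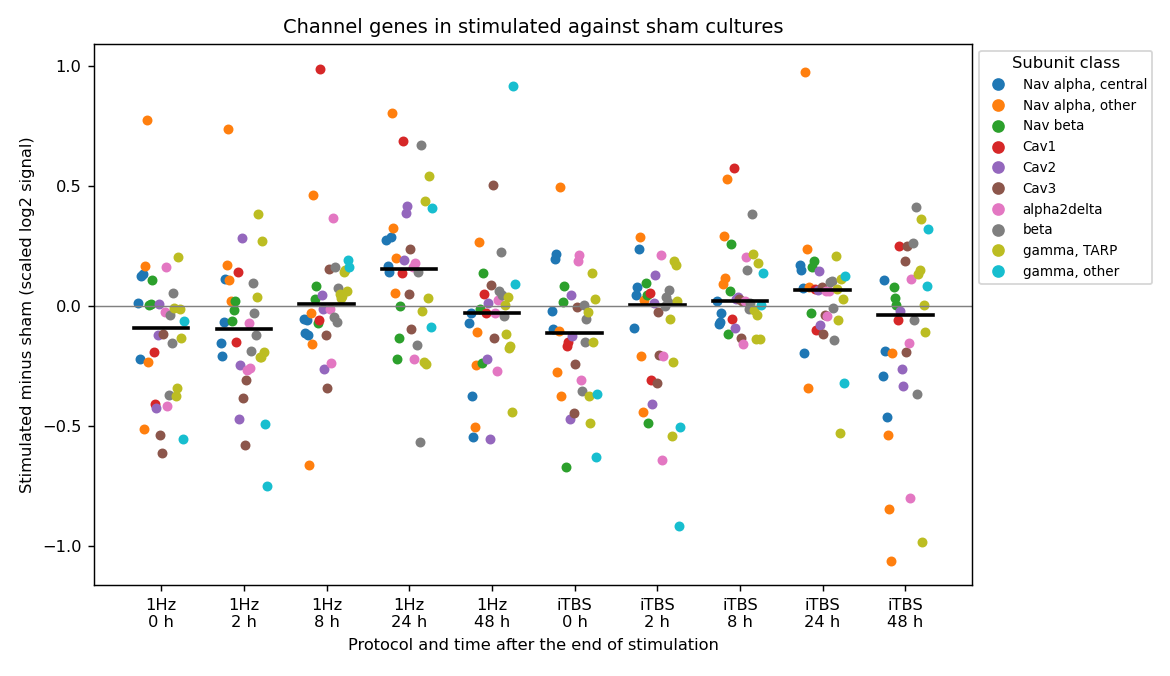
Difference between stimulated and sham cultures at the same time for 34 channel genes, on the scaled log2 scale, with 1 point per gene coloured by subunit class and a bar at their median. The largest difference shown is that of Scn10a for iTBS at 48 h, at −1.06, and no gene passed.

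For iTBS at 0 h Scn4b, a beta subunit linked to fast repetitive firing, differed by −0.67 ± 0.33 (SE), with an unadjusted p of 0.0481 in limma that did not pass after adjustment. It had levels of −0.83, −1.13, 0.12 and −0.54 under sham and −2.01, −0.39, −1.46 and −1.20 under iTBS, which overlap.

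In the other comparisons the gene with the smallest p did not pass either. For 1 Hz this was Cacna1h, a T-type pore, at 0 h (−0.61 ± 0.35), Cacng6 at 2 h (−0.75 ± 0.44), Cacna1s at 8 h (0.99 ± 0.58), Cacnb4 at 24 h (0.67 ± 0.35) and Scn8a, the alpha subunit of mature initial segments, at 48 h (−0.55 ± 0.31). For iTBS it was Cacna2d2 at 2 h (−0.64 ± 0.40), Cacnb4 at 8 h (0.38 ± 0.35), Scn4a at 24 h (0.98 ± 0.52) and Scn10a at 48 h (−1.06 ± 0.53). Cacna1s, Scn4a and Scn10a were above background on at most 4 of the 55 arrays. Untreated against sham dishes at 0 h gave 0 of 36 genes (0% of all genes), with the smallest p for Cacng5 (−0.92 ± 0.47). Criteria rebuilt from the wording of the study's methods, which combine a z-test with a false discovery rate, a z-ratio and an analysis of variance, called 0 of the 38 genes in each of these 11 comparisons. They called 0 to 7 of 45178 probes in the 10 comparisons with sham and 148 for untreated dishes, and between 1 and 5 of the 38 genes were over the z-ratio threshold alone. The paper lists far more changed genes in every comparison with sham. It also marks Cacng3 as changed after 1 Hz at every time. The wording does not give every step, and the rebuilt procedure gave other calls than those of the study. Its 0 calls for channel genes therefore describe the rebuilt procedure only.

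The series, in contrast, separated many of these genes. Differences between the 4 series passed for 28 of the 36 genes, against 78.1% of all genes tested. The share of a gene's sum of squares that the series removed had a median of 31.1% over the 36 genes and 28.8% over all genes tested, and the corresponding medians for stimulation were 8.87% and 11%, and for time 9.91% and 10.3%. The medians lay close to those of all genes, but single genes lay far above them. The series took 74.7% for Scn9a, 73.0% for Cacng3 and 61.5% for Scn11a. Time took the largest share for Scn4b, at 46.1%, and Cacng6, at 45.2%.

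**Figure D2:**
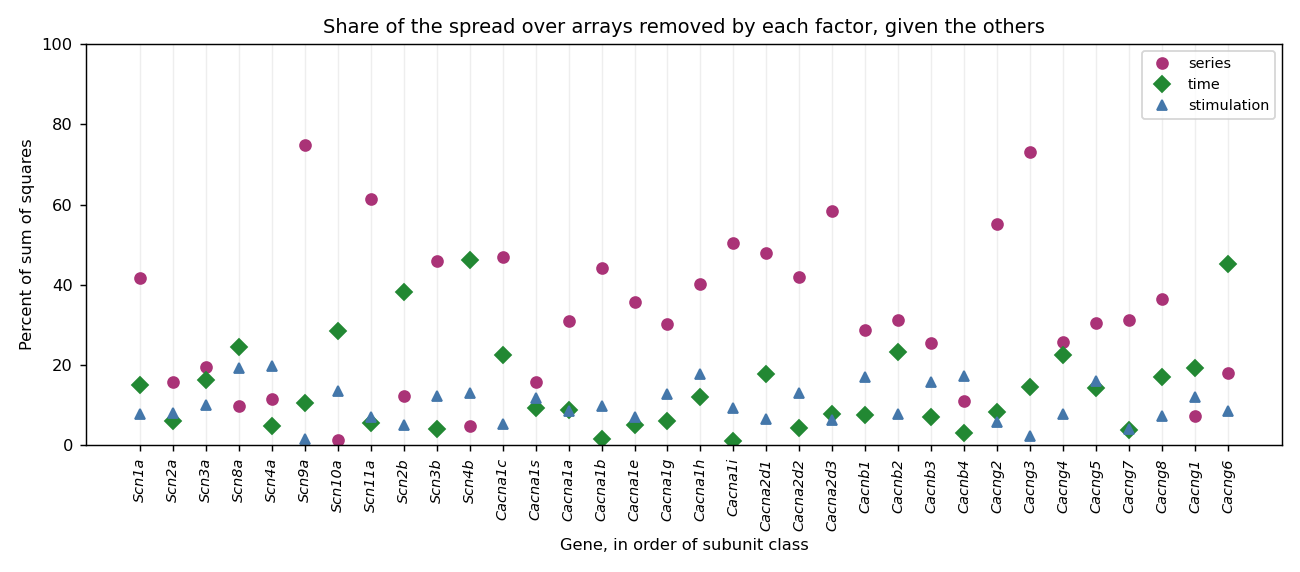
Percent of the sum of squares over the 55 arrays removed, for 34 channel genes, by series, by time and by stimulation, each given the other factors, so that shares need not add up to 100. Series reaches 74.7% for Scn9a, whereas stimulation stays at or under 19.7% in every gene shown.

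Series D differed from the mean of A, B and C for 16 of the 36 genes, 14 higher and 2 lower. Over all genes tested 57.3% differed, 31.9% higher and 25.4% lower. Among the higher genes were Cacng3, a TARP gene of cortical and hippocampal neurons, at 2.58 ± 0.14 (SE), and Scn9a at 2.00 ± 0.11. Adjusted p-values were 1.04e-18 and 4.29e-18. Scn11a, another sensory neuron alpha subunit, was higher by 1.02 ± 0.14 (adjusted p = 6.45e-08). The size of the differences of dim genes depended on how background was removed: with normexp correction and quantile normalization Scn11a was higher by 0.23, which still passed.

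Cacng3 ran from 1.28 to 3.52 in D with a median of 2.19, against −1.21 to 1.29 in A, −1.37 to 0.76 in B and −0.57 to 0.79 in C. Here the ranges of D and A meet at 1 array of each.

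The median of Scn9a was −1.0 in B (−1.65 to −0.20), −0.57 in A (−1.59 to 0.78), 0.65 in C (0.18 to 1.67) and 1.63 in D (0.95 to 2.91), so A and B overlap widely, C lies above most of them and D overlaps with C. Scn11a ran from −1.54 to −0.82 in D and was above background on all 15 arrays, while in A, B and C together it was above background on 29 of 40 arrays and its means were −1.76, −2.16 and −2.62.

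**Figure D3:**
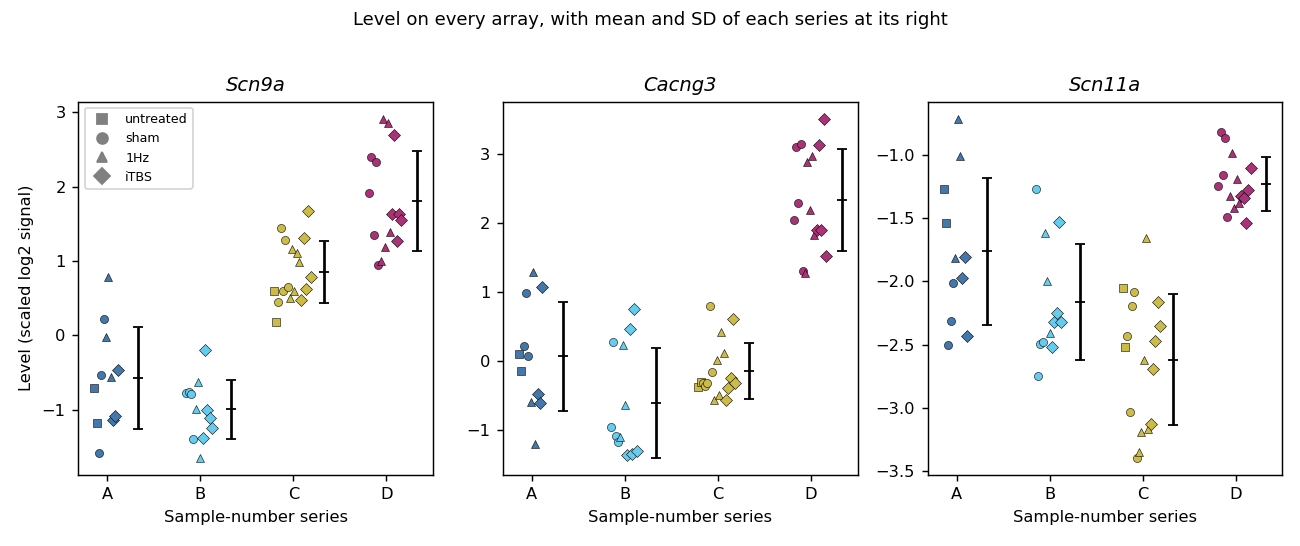
Level of Scn9a, Cacng3 and Scn11a on each of the 55 arrays, as scaled log2 signal, by sample-number series, with symbols for the treatment arm and the mean and SD of each series at its right. The lowest of the 15 arrays of series D lies at 1.28 for Cacng3, where the highest of the others is at 1.29, and the arms are mixed within each series.

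These differences held within slides. On each of the 7 slides, Cacng3 was higher in the D arrays than in the others, by 1.53 to 3.26, with no overlap on 7 of 7 slides, and Scn9a by 0.97 to 2.49, with no overlap on 6 of 7. Scn11a was higher on all 7 slides, by 0.39 to 1.68.

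The other differences of series D are given by class, to be read against the 57.3% of all genes that differed. Of the 4 central alpha subunits only Scn3a, the alpha subunit of embryonic and neonatal brain, passed, at 0.27 ± 0.09 (adjusted p = 0.0073), while Scn1a (0.01 ± 0.08), Scn2a (−0.02 ± 0.07) and Scn8a (−0.22 ± 0.12) did not. Of the beta subunits Scn3b passed (0.36 ± 0.06). The brightest probe of Scn2b did not (−0.15), although its other probe was higher by 0.35 (adjusted p = 0.0195). All 3 alpha2delta genes tested passed, with Cacna2d3 at 0.57 ± 0.09 and Cacna2d2 at 0.53 ± 0.13 higher and Cacna2d1, the gabapentin-binding subunit, at −0.31 ± 0.06. Cacna2d2 was at 0.09 with normexp and still passed. The difference of Cacna2d1 did not pass with quantile normalization (−0.16) or normexp (−0.16), its other probe gave −0.09 and did not pass, and its mean in D, 7.89, was that of C. None of the 4 beta genes Cacnb1 to Cacnb4 passed by the brightest probe, while a second probe of Cacnb2, above background on 32 arrays, was higher by 0.81 (adjusted p = 1.07e-07). Of the 6 TARP genes, 4 passed and were higher: besides Cacng3 these were Cacng4 (0.71 ± 0.15), Cacng5 (0.68 ± 0.16) and Cacng2, also known as stargazin (0.56 ± 0.08). With normexp Cacng4 was at 0.43 and Cacng5 at 0.18, and both passed.

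Among the pores of calcium channels, Cacna1e was higher by 0.66 ± 0.13 (adjusted p = 4.81e-05), or 0.42 with normexp, and lay between 0.45 and 1.88 in D (median 1.34) against medians of 0.68, 0.64 and 0.73 in A, B and C, with overlapping ranges. Cacna1h was lower, by −0.59 ± 0.09 (adjusted p = 6.55e-07), and lay between 4.36 and 5.48 in D (median 4.98) against medians of 6.05, 5.40 and 5.58. Cacna1c did not pass by its brightest probe (0.04), while its other probes were higher by 0.52 and 0.26 (adjusted p = 0.0387 and 0.0182). The muscle genes Cacna1s and Scn4a also passed as higher, but Scn4a was above background on 3 of 15 arrays of D and 0 of 40 others, and Cacna1s on 2 of 15 and 1 of 40, so no size is given. Scn4a lost its call in 34 of the 55 fits that leave out 1 array, and had an adjusted p of 0.104 with slide as a block.

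Markers of other cell types moved with series D, where 57.3% of all genes differed, 31.9% higher and 25.4% lower. Of the 8 oligodendrocyte lineage markers 7 were lower, with a median difference over the list of −2.56, and all 4 measured markers of dividing cells were lower (median −2.09). Of 8 vascular and fibroblast markers 6 were higher, and the log2 of their summed level ran from 8.33 to 9.21 in D and from 4.88 to 6.91 in A, B and C. Of 4 markers of inhibitory neurons 3 were higher (median 1.21), of 5 of excitatory neurons 4 (median 0.32), of 8 neuronal markers 5 (median 0.41) and of 8 microglial markers 5, with 1 lower. Of the 8 astrocyte markers 3 were higher and 3 lower. The part of these cell types in the differences of the channel genes was not tested. Of 3 skeletal muscle markers 1 was higher and 1 lower.

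Of a list of 28 genes for channel partners and regulators, 17 were tested, and 12 differed in series D, 10 of them higher. Of all genes 57.3% differed in this comparison, 31.9% higher and 25.4% lower. The largest was Rem2, a small GTPase that inhibits calcium channels, at 1.03 ± 0.10, followed by Fgf14, an intracellular partner of sodium channels, at 0.76 ± 0.14, and Ank3, the ankyrin of the initial segment, at 0.52 ± 0.14. Nfasc, the initial segment adhesion molecule neurofascin, was lower, at −0.51 ± 0.15.

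Series C differed from A and B for 19 of the 36 genes, 6 higher and 13 lower, where 42.6% of all genes differed, 23% higher and 19.6% lower. Scn9a led with 1.64 ± 0.12 (adjusted p = 3.34e-14), followed by Cacna2d2 at 0.67 ± 0.13, Cacng7 at 0.50 ± 0.12 and Scn1a at 0.44 ± 0.08. The lower genes were led by Scn11a (−0.64 ± 0.14), Cacng8 (−0.55 ± 0.11), Cacna2d1 (−0.47 ± 0.07) and Cacng6 (−0.45 ± 0.13). Cacna2d1 ran from 7.65 to 8.04 in C, from 7.91 to 8.89 in A and from 7.79 to 8.84 in B. Scn1a, the alpha subunit best known from inhibitory neurons, ran from 3.93 to 4.56 in C, with medians of 4.29 in C, 3.99 in A and 3.62 in B. Scn2a (−0.22 ± 0.08) and Cacna1c (−0.20 ± 0.05) were slightly lower. With normexp the differences of Scn9a (1.04), Cacna2d2 (0.14), Scn11a (−0.16) and Cacng6 (−0.12) were smaller and passed. With slide as a block, which rests on the D arrays to link the slides, 5 genes passed, 4 of them among the 19: Scn9a at 1.49, Cacna2d2 at 0.99, Cacna2d1 at −0.77 and Cacna1i at −0.61. Markers of other cell types moved in this comparison too. Of the 8 vascular and fibroblast markers 5 were higher and 1 lower (median 1.33), of 8 oligodendrocyte lineage markers 4 were higher (median 0.38), of 8 astrocyte markers 3 were higher and 2 lower (median 0.20), and of 8 microglial markers 1 was higher and 4 lower (median −0.56). Of the 8 neuronal markers 4 were lower (median −0.25), of the 5 excitatory 3 (median −0.22) and of the 4 inhibitory 2 (median −0.34). Their part in the differences was not tested.

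Series A against B called 14 of the 36 genes, all 14 higher in A, where 30.3% of all genes differed, 19.2% higher in A. They were led by Cacna2d3 at 0.73 ± 0.13, Cacna1a at 0.73 ± 0.17, Cacna1g at 0.66 ± 0.17, Cacna1h at 0.64 ± 0.13 and Cacnb1 at 0.61 ± 0.14, followed by Cacng3, Cacng6 and Cacnb3 at 0.53 to 0.56. All 3 T-type genes and 3 of the 4 beta genes were among them, and 1 sodium channel gene, Scn1a. Cacna1a ran from 0.09 to 2.09 in A and from −0.30 to 0.62 in B, which overlap, and its other probe gave 0.24 and did not pass. With normexp Cacna1a was at 0.41 and Cacng6 at 0.22, which passed, and Cacng3 at 0.30, which did not. Neuronal markers were also higher in A, 4 of 8 (median 0.50), with 3 of 5 excitatory (median 0.38) and 2 of 4 inhibitory markers (median 0.38), and of 8 microglial markers 4 were higher and 2 lower (median 1.06). Of 8 astrocyte markers 4 were lower (median −0.37), of 8 oligodendrocyte lineage markers 3 (median −0.58), and of 8 vascular and fibroblast markers 2 were higher and 1 lower. Their part was not tested. Scaling arrays by their upper quartile moved the median of all probes in this comparison from 0.04 to −0.10 and the share of calls that were higher from 55.0% to 34.9%, and 11 channel genes then passed. Slide and series could not be separated well here: with slide as a block 0 genes passed, with 4 at an unadjusted p under 0.05 in limma.

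**Figure D4:**
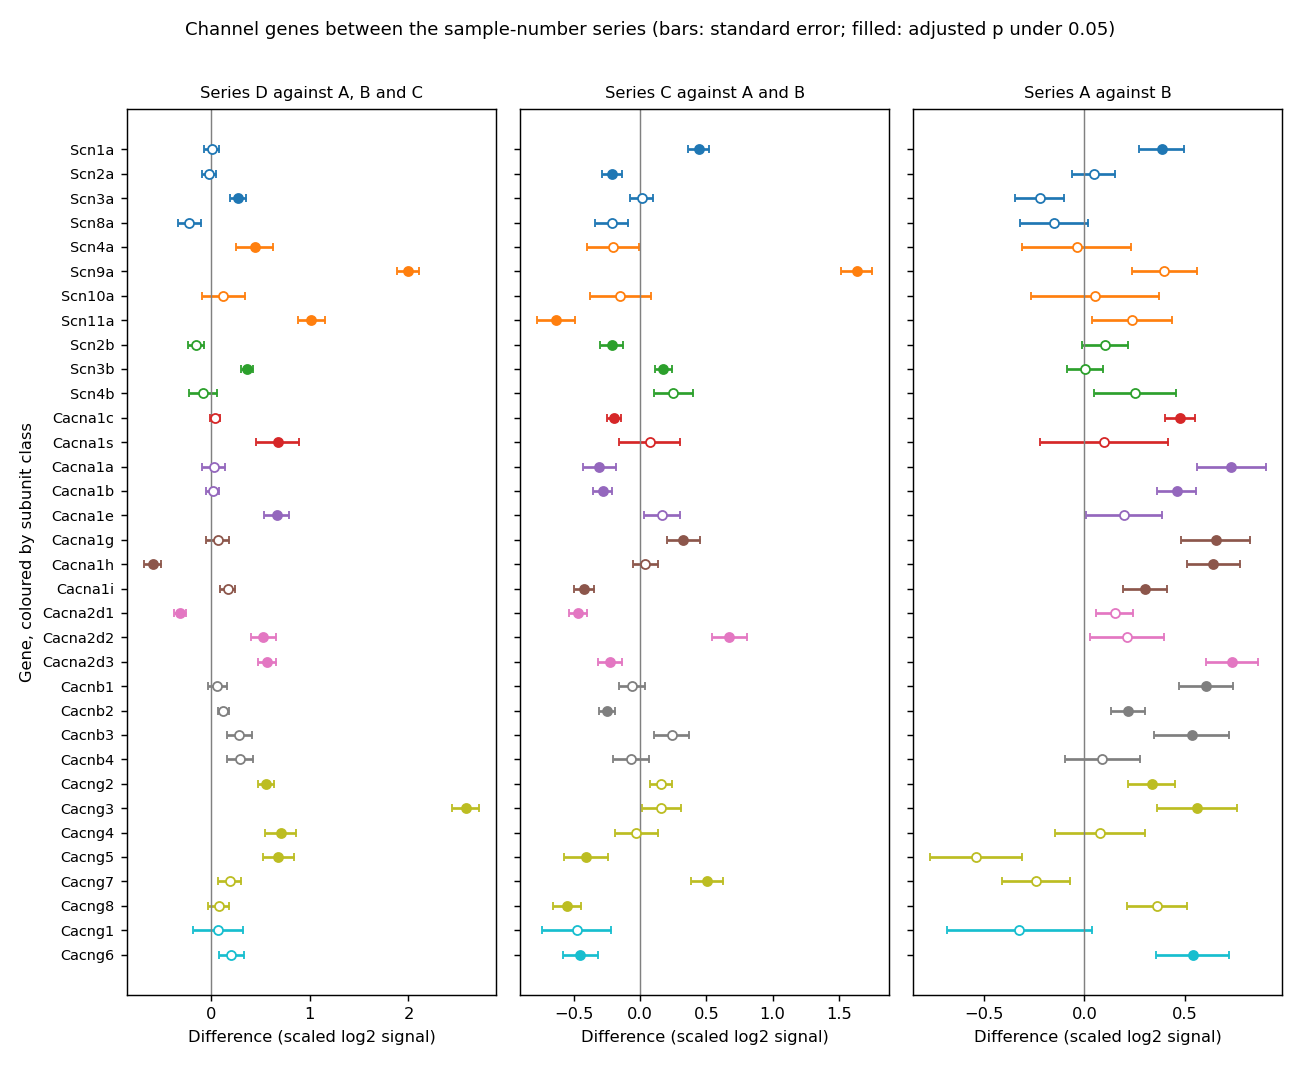
Difference between sample-number series for 34 channel genes, on the scaled log2 scale, with bars for the standard error and filled points for an adjusted p under 0.05. Series D is higher by 2.00 or more for Scn9a and Cacng3, and all 14 filled points of A against B lie above 0.

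Time after stimulation was tested over sham, 1 Hz and iTBS dishes together, with the series in the model. None of the 36 genes differed from 0 h at 2 h (0% of all genes) or at 8 h (2.56% of all genes, 1.84% higher and 0.713% lower), and 2 and 3 of them had an unadjusted p under 0.05 in limma. At 24 h 6 passed, 3 higher and 3 lower, where 17.2% of all genes passed, 11.6% higher and 5.62% lower. At 48 h 13 passed, 6 higher and 7 lower, where 30% of all genes passed, 19.2% higher and 10.7% lower. A test of any difference over time called 13 genes (30.8% of all genes). Times are spread unevenly over slides: the 11 arrays at 0 h lie on slides 1, 2, 3 and 5 and the 11 at 48 h on slides 2, 4 and 7, so slide as a block is given beside the results. Changes within a series are means over the arms that had an array of that series at both times, and have no test.

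Cacng3 rose most at 48 h. It was higher than at 0 h by 0.80 ± 0.20 (SE) at 24 h (adjusted p = 0.00566) and by 1.30 ± 0.19 at 48 h (adjusted p = 3.61e-06). At 0 h its lowest, median and highest levels were −1.37, −0.48 and 2.04 and at 48 h 0.07, 0.79 and 3.52, and the ranges over all series overlap. Within series the change at 48 h was 0.70 in A, 1.73 in B, 1.09 in C and 1.48 in D, and within arms 1.10 for sham, 1.36 for 1 Hz and 1.62 for iTBS. With slide as a block the rise was 0.65 at 24 h, which did not pass (adjusted p = 0.239), and 1.38 at 48 h (adjusted p = 0.00787). With normexp it was 0.53 at 24 h and passed.

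Scn9a rose by 0.96 ± 0.16 at 24 h (adjusted p = 7.11e-05) and 0.84 ± 0.16 at 48 h (adjusted p = 9.35e-05). Its median went from 0.45 at 0 h to 1.30 at 24 h and 1.10 at 48 h, with overlapping ranges. Every series with an arm sampled at both times moved up, by 0.60 to 1.16 at 24 h (3 series, without A) and by 0.32 to 1.23 at 48 h (4 series).

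The neighbouring beta subunit genes Scn2b and Scn4b both rose. Scn2b was higher at 48 h by 0.53 ± 0.11 (adjusted p = 0.00045), with levels of 5.76 to 6.17 (median 6.04) at 0 h and 6.10 to 7.19 (median 6.55) at 48 h. The change was 0.80 in A, 1.23 in B, 0.13 in C and 0.28 in D. Its other probe, which correlated with it by 0.030 over the arrays, gave 0.21 and did not pass, so the rise rests on 1 probe. Scn4b was higher by 0.58 ± 0.20 at 24 h (adjusted p = 0.0488) and by 0.92 ± 0.20 at 48 h (adjusted p = 0.000512), from −2.01 to 0.12 at 0 h (median −0.83) to −0.28 to 1.28 at 48 h (median 0.13). It changed by 1.49 in A, 1.70 in B, 0.75 in D and 0.01 in C, where its mean at 0 h was −0.10, above that of the other series. The call of Scn4b at 24 h was lost in 39 of the 55 fits that leave out 1 array, with normexp (0.31) and with slide as a block (adjusted p = 0.102), while at 48 h it passed with slide as a block and, at 0.53, with normexp.

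Cacng6 fell most, by −1.16 ± 0.18 at 24 h (adjusted p = 2.54e-05) and by −0.92 ± 0.18 at 48 h (adjusted p = 0.000137). At 0 h it lay between −1.54 and −0.68 on 11 arrays, all above background, and at 24 h between −2.80 and −1.90 on 9 arrays, of which 7 were above background, and these groups do not overlap. All 4 series fell at 48 h, by −1.07 in A, −0.66 in B, −0.93 in C and −1.05 in D. It was the only channel gene that passed in a test of time in sham dishes alone (adjusted p = 0.0023, 4.34% of all genes), where 9 had an unadjusted p under 0.05. With slide as a block the fall was −0.94 at 24 h and −0.65 at 48 h and did not pass (adjusted p = 0.0714 and 0.205). With normexp it was −0.41 and −0.31, and passed at both times.

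The TARP neighbours Cacng4 and Cacng5 both fell at 48 h, by −0.76 ± 0.21 (adjusted p = 0.00751) and −0.76 ± 0.22 (adjusted p = 0.0087), while Cacng3 rose. Cacng4 went from a median of 0.79 at 0 h (0.26 to 2.25) to 0.47 at 48 h (−1.56 to 1.64), and changed by −1.11 in D and by −0.16 to −0.38 in the other series. The lowest array, 1 Hz at 48 h of series A, has no partner in A at 0 h and does not enter the last range, and without it the fall was −0.58 and still passed. Cacng5 was above background on 6 of 11 arrays at 0 h and 2 of 11 at 48 h. Neither passed with slide as a block (adjusted p = 0.491 and 0.077). With normexp Cacng4 was at −0.50 and passed, and Cacng5 at −0.15 and did not.

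Of the central alpha subunits, Scn8a fell by −0.54 ± 0.16 (adjusted p = 0.0121) and Scn3a by −0.35 ± 0.12 (adjusted p = 0.0271) at 48 h. Neither passed with slide as a block (adjusted p = 0.0894 and 0.317). A second probe of each also passed, at −0.51 and −0.28. The call of Scn3a was lost without sham at 48 h replicate 2 or replicate 3. Within arms Scn3a changed by −0.08 for sham, −0.58 for 1 Hz and −0.46 for iTBS. The 1 Hz value holds its lowest array, at 4.44. Scn8a fell in all 4 series, from −0.07 in A to −1.10 in B, but within sham arrays its change was −0.10, against −0.78 for 1 Hz and −0.78 for iTBS. The lowest array of Scn8a, at 0.90, is 1 Hz at 48 h of series A, as it is for Scn3a. It has no partner in A at 0 h, so it enters the fit and the 1 Hz value but not the −0.07. Whether the change over time differed between arms was tested for all 5 times together (above) and did not pass. Scn1a (0.16 ± 0.11) and Scn2a (−0.13 ± 0.10) did not pass at 48 h.

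Among the calcium channel pores only Cacna1c passed, at −0.22 ± 0.07 at 24 h and −0.20 ± 0.07 at 48 h (adjusted p = 0.0431 and 0.0358), and these calls were lost in 15 and 9 of the 55 fits that leave out 1 array and with slide as a block (adjusted p = 0.495 and 0.316). The other probes of Cacna1c gave −0.46 and −0.22 at 24 h, which did not pass, and −0.85 and −0.35 at 48 h, which did. Cacna2d1 fell by −0.34 ± 0.09 at 24 h and −0.32 ± 0.09 at 48 h (adjusted p = 0.0108 and 0.00633). It passed in 2 of 4 other scalings at 24 h and in 3 of 4 at 48 h, and with normexp the fall at 24 h was −0.26 and did not pass. Its other probe gave −0.25 at 24 h, which did not pass, and −0.26 at 48 h, which did. By the brightest probe the fall of Cacna2d1 at 48 h was −0.65 in A and −0.70 in B but −0.06 in C and −0.07 in D. The Cav2 and Cav3 genes did not pass at either time for their brightest probes, although a second probe of Cacna1a fell by −0.71 at 48 h (adjusted p = 0.0101) where the brightest was at −0.01. Scn10a passed as higher at 48 h but was above background on 2 of 11 arrays at 48 h and 1 of 11 at 0 h, so no size is given. It did not pass with slide as a block (adjusted p = 0.565) or normexp. The remaining gene was Cacnb2 at 0.23 ± 0.08, named after its values were seen. It passed in 0 of the 4 other scalings and lost its call in 10 of the 55 fits that leave out 1 array. Its other probe went the other way at 48 h, at −0.27, and did not pass. Leaving out 1 array lost the call of Scn10a in 3 fits.

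**Figure D5:**
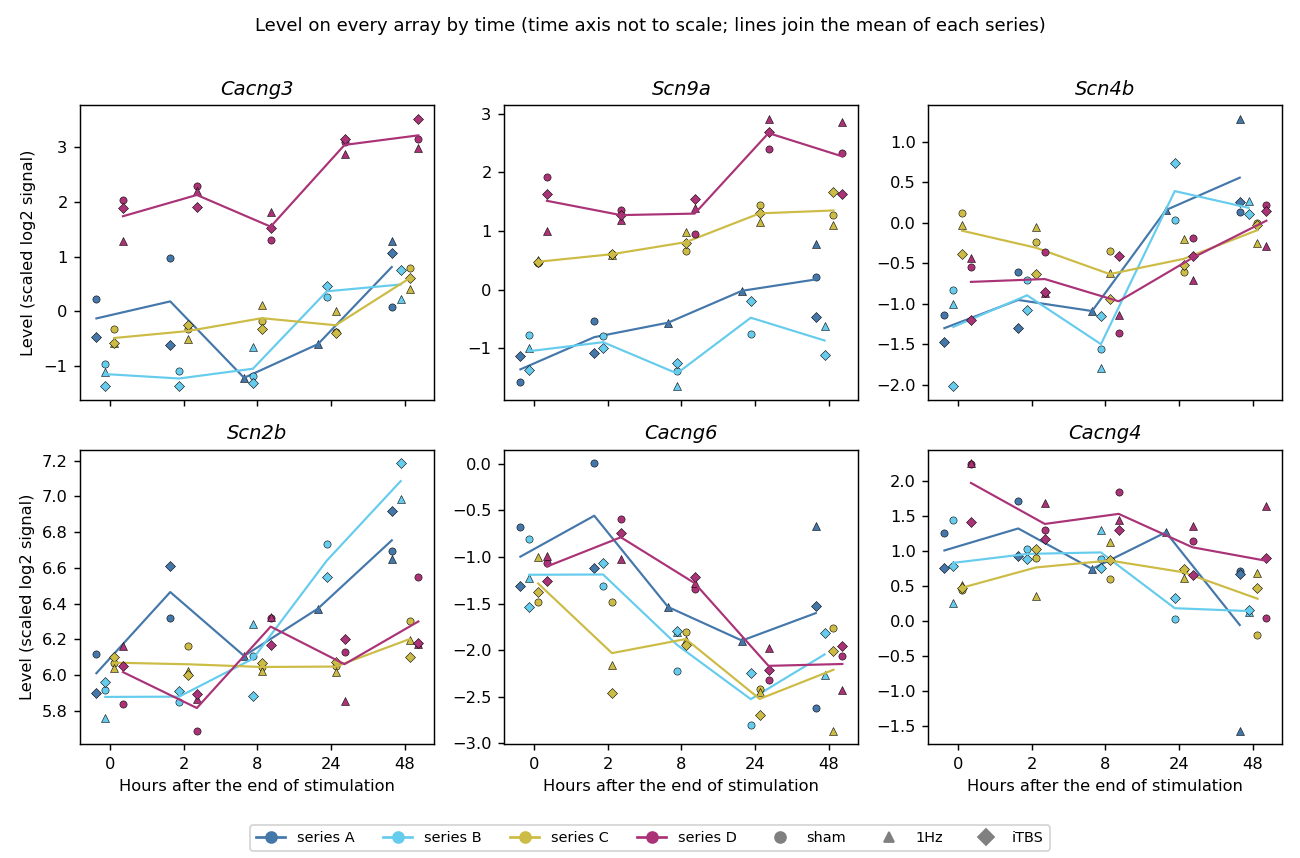
Level of 6 channel genes on each array by hours after stimulation, as scaled log2 signal, on a time axis that is not to scale, with colours for the sample-number series, symbols for the arm and lines through the mean of each series at each time. Cacng3 and Scn9a rise and Cacng6 falls in every series by 48 h. Scn2b rises mainly in series A and B, and Scn4b in A, B and D.

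Among all genes 11.6% were higher and 5.62% lower at 24 h, and 19.2% were higher and 10.7% lower at 48 h. Astrocyte markers rose over the same time. Of 8 such markers 6 were higher at 48 h (median 0.59) and 2 at 24 h, with Gfap at 1.64 ± 0.22 and Gja1 at 0.70 ± 0.09 at 48 h, and the log2 of their summed level ran from 10.6 to 11.5 at 0 h and from 10.8 to 12.6 at 48 h. Of the 8 neuronal markers 1 was higher and 3 were lower at 48 h, with Map2 at −0.64 ± 0.19 and Stmn2 at −0.38 ± 0.11, and 2 were lower at 24 h. Their part in the changes of the channel genes was not tested. Of the 17 channel partners tested 2 were lower at 24 h and 4 at 48 h, among them Calm2, Fgf14 and Nrcam, with Fgf14 at −0.73 ± 0.19, and none was higher.

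Fewer time results passed in fits with fewer arrays. With the 17 sham arrays alone 0 genes passed at 24 h or 48 h, with 3 and 8 at an unadjusted p under 0.05 in limma. Without the D arrays, a setting chosen after seeing the data, 2 passed at 24 h and 6 at 48 h. Those 6 were Cacng3 (1.19), Scn4b (0.97), Scn9a (0.85), Scn2b (0.63), Cacna2d1 (−0.42) and Cacng6 (−0.89). In sham arrays alone the same 6 genes changed at 48 h by 0.715, 0.67, 0.91, 0.53, −0.13 and −1.24, in that order. Fewer arrays also widen the errors, so these counts do not show which dishes a change rests on. With slide as a block 7 passed at 48 h, 6 of them among the 13: Cacng3, Scn4b, Scn9a, Scn2b, Cacna2d1 and Cacnb2. Cacng3, Scn9a, Scn4b, Scn2b and Cacna2d1 passed at 48 h both without the D arrays and with slide as a block.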

How the data were processed

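RNA of rat hippocampal cultures was labelled with Cy3 and hybridized to Agilent 1-colour arrays, 1 sample per array. The deposited scanner files give a background-corrected processed intensity per spot on a linear scale, which the authors had not normalized between arrays. A deposited value table adds a score for each spot, which is the authors' z-score of its log signal within the array.

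Control spots and spots marked as outliers were left out, spots of a probe were averaged on the log2 scale, and 420 probes with a missing value were dropped. Following the study, values were converted to z-scores within each array, then put back on a log2 scale with 1 common factor, the median SD over arrays (4.06). No level of a probe is set against that of another. Symbols came from a RefSeq table of assembly GRCr8 through unversioned accessions, which named 21109 of 45598 probes. The files name build rn4, so no probe coordinates are given. Probes well above background on fewer than 3 arrays were removed, which left 35688 (13877 genes with a symbol, by their brightest probe).

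Group means were fitted in limma (version 3.58.1, R 4.3.3) by lmFit and moderated with eBayes, without covariates for comparisons with sham and with the sample-number series in the model for series and time, with all 55 arrays sharing the estimate of the spread. Tests were two-sided, with Benjamini-Hochberg adjustment over all probes tested, and SE is the standard error of the fit. The procedure was tested on simulated data. Precision is limited by the number of arrays. Groups and replicate numbers came from the sample titles and series from the sample numbers.

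The members, marker lists, partner list and tests were chosen with earlier results of these data known. Up to 8 members with the largest change among those that passed were named per series or time test, with values by sample or series for up to 6, the smallest p where none passed, and 20 members whatever their values. The median signal stood in for the mean signal in an alternative background correction, since the files used here hold no mean signal. Slide and scan time name the same sets of arrays. Results of some genes are not reported here, though they count in the totals. Other scalings, filters, blocks, single left-out arrays and other probes were tried as alternatives.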

Additional observations from a re-analysis of the deposited data

Results flagged for a closer look

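In the 8 groups of 4 arrays, 272 combinations of group and gene were examined for an array far from the other 3 by Dixon's criterion, and 8 had one. Chance alone marks about 1 in 20. Of the 8 values 3 came from series D. Cacng3 stood at 3.52 for iTBS at 48 h replicate 4 (others 0.61 to 1.08) and Cacna2d3 at 3.81 for 1 Hz at 8 h replicate 4 (others 3.09 to 3.1). On that last array Scn10a stood at −4.09 (others −4.86 to −4.80), near background.

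The remaining 5 values came from series A, B and C. Scn10a, near background, stood at −3.21 on untreated replicate 1 (others −4.86 to −4.60), Scn2b stood at 6.61 for iTBS at 2 h replicate 3 (others 5.89 to 6.0), Cacnb3 at 6.6 for iTBS at 2 h replicate 1 (others 7.8 to 8.0), Cacng5 at −2.47 for untreated replicate 2 (others −3.71 to −3.51), and Cacng8 at 1.88 for sham at 0 h replicate 3 (others 2.82 to 3.0).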

How the results depend on the processing

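Of 80 named results 68 passed, and under single left-out arrays 291 of 4400 refitted values lost the call and 0 changed sign. Of the 68, 60 passed with scaling to the upper quartile, 58 with quantile normalization, 56 with normexp and quantile normalization, 66 with the deposited z-scores, 62 without a filter and 62 with a filter at 50% of arrays, 64 with probes averaged, 27 with slide as a block and 19 with all 56 arrays. With normexp 27 of the 68 were smaller by a factor of over 1.5. The cause of these losses was not tested. In comparisons with sham 0 members passed under every setting and every left-out array, except that 22 passed for 1 Hz at 2 h with all arrays, which restores the array with the bad grid.

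With the replicate number as a block, 7 members passed in D against A, B and C, 9 in C against A and B, and 43 of the named results. Same-numbered arrays shared only a number: their deviations correlated by a mean of 0.160, against 0.398 for arrays of the same series. With slide as a block, members passing were 5 in C against A and B, 0 in A against B, 2 at 24 h, 7 at 48 h and 0 over time in sham. With all arrays they were 4 in C against A and B, 0 in A against B, 14 for any series difference, 1 at 24 h, 3 at 48 h, 2 over time and 0 over time in sham. Without series D they were 12 in C against A and B, 9 in A against B, 2 at 24 h, 6 at 48 h, 6 over time and 0 over time in sham. With sham arrays only they were 0 at 24 h, 48 h and over time. Over time in sham, 2 passed with scaling to the upper quartile, quantile normalization, normexp and the filter at 50% of arrays. Leaving out 1 array gave 15 to 18 in D against the others, 14 to 19 in C against A and B, 9 to 15 in A against B, 26 to 29 for any series difference, 0 to 1 at 8 h, 4 to 6 at 24 h, 10 to 14 at 48 h, 11 to 15 over time and 1 to 3 over time in sham. The 9 came without sham at 2 h replicate 3, the 1 at 8 h without 1 Hz at 8 h replicate 1, and the 3 without 1 Hz at 48 h replicate 1, and 12 other arrays gave 2 over time in sham. Scan time was not run as a block of its own, since it names the same arrays as slide.

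Values that changed sign were, for series D, Scn4a at −0.032 with the replicate block and Cacna2d1 at 0.10 with all arrays. For C against A and B they were Scn2a at 0.21, Scn2b at 0.055, Cacna1c at 0.13 and Cacna2d1 at 0.057 with all arrays, and Cacna1a at 0.32 and Cacng6 at 0.0079 with slide as a block. For A against B with all arrays they were Cacna1i at −0.15, Cacnb2 at −0.026, Cacnb3 at −0.14 and Cacng2 at −0.17. At 48 h they were Scn8a at 0.0048 with sham arrays only and Cacnb2 at −0.019 with probes averaged.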
